A study of Vicia sativa with 8 samples.

Results

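In the RNA-Seq data of common vetch (Vicia sativa), 84 unigenes differed by at most 1.68-fold in abundance between the organs examined. A unigene is an assembled transcript sequence, and its abundance is given as RPKM, its uniquely aligned reads corrected for the length of the unigene and the depth of the library. The 84 unigenes were chosen on their RPKM in all 8 organs, by a mean RPKM of at least 20, at least 100 reads in each library, and a coefficient of variation (the sample SD over the mean) of RPKM of at most 0.15. Of the 71553 unigenes with a read in any library, 4001 passed the conditions on mean RPKM and reads, and the 84 are 2.10% of these. Since the choice used the values of all 8 organs, the evenness of the 84 across organs is a description and not a result. It also depended on how libraries were scaled, and 19 of the 84 stayed within the limit under all 3 scalings used below.

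The floral samples were the sepals, the dorsal, lateral and ventral petals, the stamens and the carpels, taken at floral stage 12 from plants about 45 days old, and leaves and roots came from 2-week-old seedlings. All came from the cultivar Lanjian 3, grown in a greenhouse with 16 h of light and 8 h of dark at 22°C. Poly(A) RNA of each organ was made into 1 library with random hexamer primers and sequenced on an Illumina instrument. With 1 library per organ there was no replicate, so no test between organs was possible, all values compare single libraries, and the counting errors given cover the sampling of reads only. Leaves and roots also differ from the flowers in plant age, and the effects of organ and of age cannot be told apart.

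Transcripts that keep an even abundance in all tissues serve as the yardstick of quantitative PCR, where a target is expressed relative to an internal control. Plant laboratories have long used genes of basic cell functions for this purpose, such as actin, tubulin, ubiquitin, elongation factor 1-alpha and glyceraldehyde-3-phosphate dehydrogenase. Basic function alone does not make a transcript even, because dividing, expanding and photosynthetic cells need ribosomes, cytoskeleton and metabolic enzymes in different amounts. Genes for regulated protein breakdown, mRNA turnover, vesicle traffic and protein phosphatases have also come into use as controls.

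Of the 61 unigenes for which the study lists PCR primers, 8 passed the conditions on mean RPKM and reads and 3 were among the 84, namely Unigene68614, Unigene58410 and Unigene55238. Their primers are shown because these are the pieces of stable transcripts that can be amplified again, Unigene68614 being the internal control of the study's PCR. They are written 5′ to 3′ in lower case, with no base marked.
Unigene68614 forward: gctaaagcattgaacaacaaaaga
Unigene68614 reverse: gcaaagtttgtcccttcacc
Unigene58410 forward: acgaggtcctgtgcagattc
Unigene58410 reverse: tctccaaatctaagaccaccatc
Unigene55238 forward: ttgccttactttatgaactgcatc
Unigene55238 reverse: ctcaagctccttcgaacattg
The primers were 20 to 24 nt long, and their GC content ran from 33.3% in the forward primer of Unigene68614 to 55% in the forward primer of Unigene58410.

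The total of uniquely aligned reads had a median of 5706811 per library, from 93.8% of this in leaves to 110% in sepals. Organ markers, taken as words in the nr annotation (the best protein match in the NCBI non-redundant database), followed the labels. The 14 RuBisCO small subunit and chlorophyll a/b binding unigenes summed to 29372 RPKM in leaves, against 877 to 7762 elsewhere. The 2 unigenes annotated as petal and stamen identity genes of the B class summed to 626 to 937 RPKM in petals and stamens, against 0 to 11.8 in the other organs, and the AGAMOUS-type unigenes reached 175 RPKM in stamens and 215 in carpels, against at most 11.4 elsewhere. The 8 nitrate and phosphate transporter unigenes were highest in roots (588 RPKM), but were also at 387 in leaves. Factors of the trimmed mean of M values (TMM), which correct for a few abundant transcripts taking up reads, would raise all RPKM by 0.37 on the log2 scale in leaves and 0.28 in carpels, and lower those of dorsal petals by 0.17.

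Unigene68614 (901 bp, no nr match) was sixth of the 84 when ordered by coefficient of variation. Its RPKM was 76.0 in sepals, 69.4, 71.8 and 64.5 in dorsal, lateral and ventral petals, 68.4 in stamens, 70.2 in carpels, 59.1 in leaves and 65.2 in roots. It was highest in sepals and lowest in leaves, 1.29 times apart, and counting error alone would give 50.4% of the variance seen. The study had picked it as control for its even values in these same libraries, so its place here is not independent of that choice.

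Unigene71345 had the lowest coefficient of variation of all 4001 unigenes, 0.0716. Its RPKM was 50.1 in sepals, 48.4, 52.4 and 43.3 in dorsal, lateral and ventral petals, 46.8 in stamens, 45.9 in carpels, 47.7 in leaves and 42.1 in roots. Lateral petals were highest and roots lowest, a petal type and a seedling organ. The nr match is a rice locus (Os06g0104000) whose name states no function.

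Unigene58410, annotated as the second largest subunit of RNA polymerase II, which forms the catalytic centre of the enzyme that makes mRNA together with the largest subunit, came next. Its RPKM was 66.2 in sepals, 63.7, 59.7 and 59.1 in dorsal, lateral and ventral petals, 60.3 in stamens, 63.8 in carpels, 52.0 in leaves and 59.1 in roots. Its coefficient of variation of 0.0717 was below that expected from counting alone (130% of the observed variance), the only such case among the 84. Sepals were highest and leaves lowest, as for Unigene68614.

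Unigene55238, a match to the rice locus Os10g0511600, had the smallest ratio of highest to lowest organ of the 84, at 1.19. Its RPKM was 106 in sepals, 97.9, 106 and 91.6 in dorsal, lateral and ventral petals, 89.4 in stamens, 96.0 in carpels, 104 in leaves and 89.0 in roots. Unlike the other 2 unigenes examined by PCR, it was not low in leaves, and its lowest organs were roots and stamens.

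How well unigenes stay in step with each other can be read from the SD over the 8 organs of the log2 ratio of a pair, which does not depend on how libraries are scaled. Over the 3486 pairs of the 84, the closest was Unigene58410 with Unigene68614, at an SD of 0.05 on the log2 scale. The unigene sequences were not analysed here, so whether these 2 are pieces of 1 transcript was not tested. Averaged over the 83 other stable unigenes, the SD of the log2 ratio was lowest for Unigene58410 (0.18) and next lowest for Unigene68614, and it ran up to 0.29. As all of them were chosen as even in RPKM, these averages partly restate the low spread of each unigene. The set averaged over also depends on the scaling that chose it. The unigene least in step with Unigene68614 was Unigene50458, a protein kinase by annotation, with an SD of 0.30.

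In RPKM, a divisor made of several of these unigenes was flatter over the organs than Unigene68614 alone. Relative to its own mean on the log2 scale, Unigene68614 ranged over 0.36 from leaves to sepals. The mean log2 RPKM of the 3 unigenes examined by PCR, which include that close pair, ranged over 0.25, and that of all 84 over 0.17, a ratio of 1.12 between the highest and the lowest organ. Since evenness in RPKM in these libraries chose the unigenes, these ranges describe the libraries and do not say how the divisors would do in new samples. They also depend on the scaling. TMM factors would raise every divisor by 0.37 on the log2 scale in leaves and lower it by 0.17 in dorsal petals. The ranges after rescaling were not computed.

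**Figure D1:**
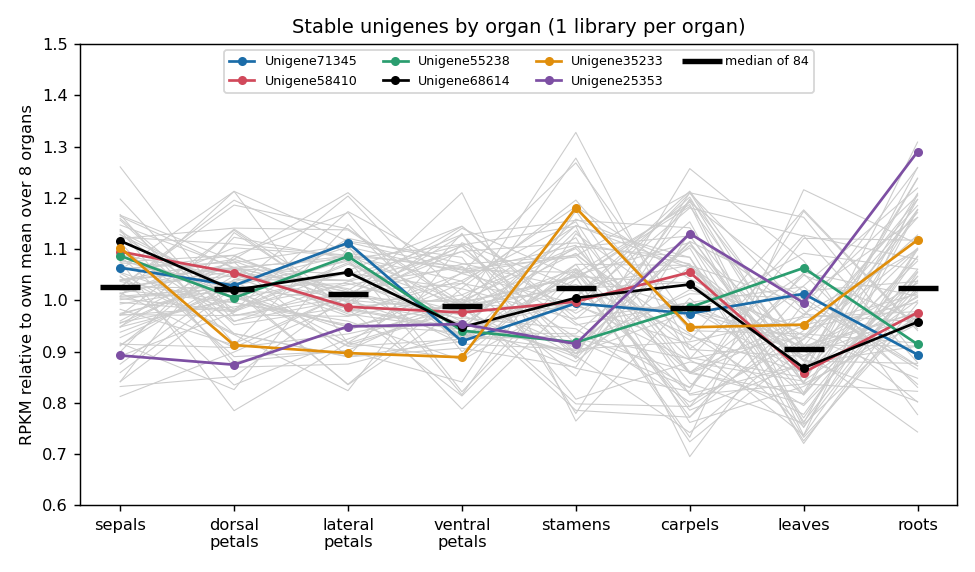
RPKM of each of the 84 stable unigenes divided by its own mean over the 8 organs (vertical axis, no unit) in each organ (horizontal axis, 1 library each). Grey lines are single unigenes, coloured lines are 6 named ones, and black bars are medians over the 84, which lie between 0.984 and 1.03 in 7 organs and at 0.905 in leaves.

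Over the 84, the ratio of the highest to the lowest organ ran from 1.19 to 1.68 with a median of 1.45, where the median over the 4001 unigenes was 3.08. The coefficient of variation had a median of 0.124, against 0.362 over the 4001, whose range was 0.0716 to 1.99. Of the 84, 16 were at or below 0.10. Among all 4001, a ratio of at most 1.5 was met by 59 (1.47%), 55 of which were among the 84, and 3435 (85.9%) varied by more than 2.0-fold.

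The unevenness left among the 84 was not the same in all organs. Leaves were the lowest organ for 25 of the 84 (29.8%, beside 30.6% of the 4001) and the highest for 5 (5.95%, beside 9.50%). Of the 84, 64 lay below their own mean there. Carpels were lowest for 19 (22.6%, beside 29.9%) and highest for 13 (15.5%, beside 22.1%). Roots were highest for 19 (22.6%, beside 22.5%), stamens for 15 (17.9%, beside 17.4%), and a petal type was highest or lowest in 32. The shares of leaves as lowest, and of roots and stamens as highest, were thus close to those among all 4001. The median of the 84 relative to their own means was 0.905 in leaves. All 4001 unigenes also had their lowest such median in leaves, at 0.746, followed by carpels at 0.842. The 3 petal types stayed within 1.2-fold of each other for 65 of the 84, but the rule used the petal values. For this count, and for the 64 and the 32 above, no share of the 4001 was computed.

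The limit fell within a smooth run of values. Just inside it lay Unigene69025 (0.148), Unigene63915 (0.1497), a bZIP transcription factor by annotation, and Unigene58163 (0.1499), annotated as DIP1. Just outside it lay Unigene15469, Unigene65039 (0.1502), a PAP-specific phosphatase by annotation, and Unigene68424 (0.1502), annotated as a SWR complex protein. When the reads were thinned to the smallest library, Unigene58163 moved to 0.155 and these 3 outside moved to between 0.142 and 0.148, so unigenes close to the limit changed sides with the sampling of reads.

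Abundance, which the rule used only as a lower bound, was moderate. The mean RPKM of the 84 ran from 21.0 to 585 with a median of 67.9, against 81.3 over the 4001, which reached 4008. Divided by mean RPKM into 4 groups of nearly equal size, the 4001 unigenes held 23, 25, 25 and 11 stable ones from the lowest group to the highest. Divided by the reads in their lowest library, 4 such groups held 1.07%, 1.41%, 2.13% and 3.82% of stable unigenes, so the share was higher where more reads were counted. Counting error made up a median of 28.6% of the variance of the 84 (4.73% to 130%), against 2.26% over the 4001, and at least 50% in 18 of the 84. Since the 84 were chosen for a small variance, this contrast follows from the rule. The coefficient of variation from counting alone was similar, with a median of 0.0638 for the 84 and 0.0561 for the 4001.

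**Figure D2:**
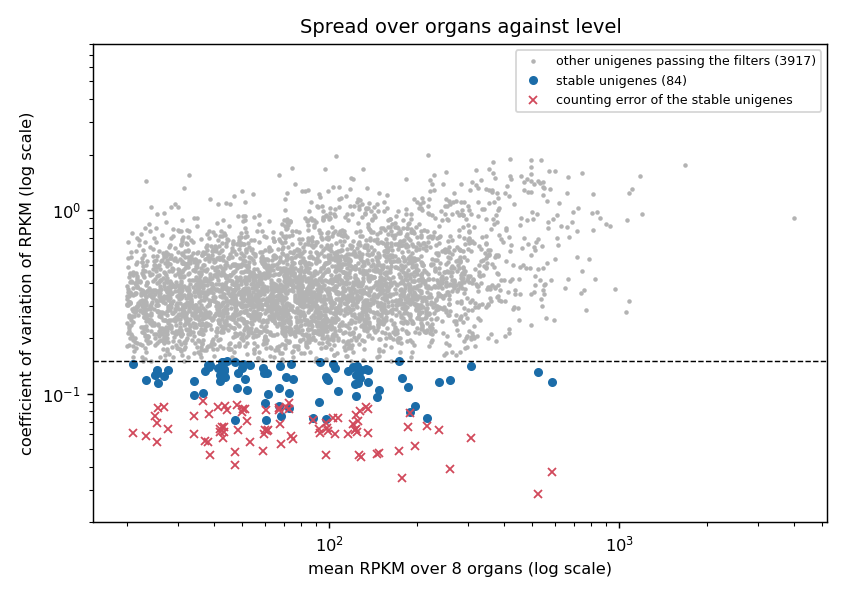
Spread of RPKM (coefficient of variation, 8 organs) against mean RPKM (both axes logarithmic) for the 4001 unigenes that passed the conditions on mean RPKM and reads. Blue points are the 84 at or below the dashed limit of 0.15, red crosses are the values that counting error alone would give for the same 84, and the blue points lie at mean RPKM of 21.0 to 585.

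Length and annotation were not used by the rule. The 84 had a median length of 550.5 bp against 693 bp over the 4001 and 302 bp over all unigenes. An nr match was given for 81 of the 84 (96.4%) and for 95.6% of the 4001, but for 64.9% of all unigenes. A GO process was given for 20 (23.8%), against 27.9%. In the library where it was lowest, the share of the unigene under at least 1 read had a median of 95.4% for the 84 and 93.8% for the 4001. The 3 unigenes without a match were Unigene68614, Unigene55306 and Unigene28030. No 2 of the 84 shared their first nr match, while 32 shared it with some other unigene of the assembly.

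The annotations below are names of the best nr match, often in rice, Arabidopsis or algae, and the match can be weak. The E-value was 1e-30 or less for 26 of the 81 matched unigenes and above 1e-10 for another 26, and 22 of the 84 had a title that names no function. Sorted by words in these titles into 24 function classes, 989 of the 4001 unigenes fell in a class, of which 23 were stable (2.33%). Of the 3012 in no class, 61 were stable (2.03%), so the classed unigenes were near the 2.10% of all.

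In protein breakdown, 3 of 92 unigenes of ubiquitin conjugation and ligation and 1 of 44 named as proteasome were among the 84. Unigene35233, a ubiquitin-conjugating enzyme (E2), which hands ubiquitin on to target proteins, had the highest mean of the 84, at 585 RPKM. Its RPKM was 645 in sepals, 534, 525 and 520 in dorsal, lateral and ventral petals, 691 in stamens, 554 in carpels, 557 in leaves and 654 in roots. Sepals, stamens and roots were above the mean and the 3 petal types were the lowest organs, with counting error at 10.7% of the variance. Unigene57409, annotated as E2S, had a mean of 116 RPKM, from 91.0 in dorsal petals to 140 in roots. Unigene68041, an F-box protein by annotation, had a mean of 97.3 RPKM, from 75.8 in stamens to 110 in ventral petals and carpels.

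In the proteasome, the protease that degrades proteins tagged with ubiquitin, Unigene52958 is annotated as a regulatory subunit. It measured 110 RPKM in sepals, 122, 135 and 153 in dorsal, lateral and ventral petals, 157 in stamens, 155 in carpels, 117 in leaves and 137 in roots. Ventral petals, stamens and carpels were its high organs. Unigene61786, annotated as prsS10B, an ATPase subunit of the same regulatory particle, lay between 131 RPKM in leaves and 176 in carpels. A class of regulatory particle unigenes made after these values were seen held these 2 among 29. A class made this way can hold a high share of stable unigenes by construction. Its share is therefore not comparable with the 2.10% of all 4001.

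NEDD8 is a relative of ubiquitin that is attached to cullins and thereby switches on a large family of ubiquitin ligases. Unigene36048, annotated as the NEDD8-conjugating enzyme Ubc12, had 189 RPKM in sepals, 199, 202 and 173 in dorsal, lateral and ventral petals, 200 in stamens, 144 in carpels, 182 in leaves and 205 in roots. Carpels were its lowest organ. The same held for Unigene61472, annotated as DCN1-like, a protein that helps to attach NEDD8 to cullins, which was at 64.8 RPKM in carpels and between 81.3 and 107 in the other organs. With these 2, 2 of 5 NEDD8 unigenes were among the 84, in a class made after the values were seen, so this share too can be high by construction. With TMM factors 1 unigene of this class was stable, and with median-of-ratios factors 2.

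In mRNA synthesis and handling, 1 of 21 unigenes of general transcription (Unigene58410), 1 of 28 of splicing and 2 of 44 RNA helicases and RNA-binding proteins were among the 84. The helicases were Unigene60569, with 42.3 RPKM in stamens to 56.6 in roots, and Unigene58941, with 81.3 in leaves to 119 in roots. Unigene27756, annotated as the splicing factor SLT11, which in yeast acts in the assembly of the spliceosome, lay between 114 RPKM in leaves and 171 in stamens. Unigene55713, annotated as UBA2a, an RNA-binding protein of Arabidopsis, had the fourth lowest coefficient of variation (0.0740), from 78.6 RPKM in stamens to 99.0 in sepals.

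Unigene53931 is annotated as coiled-coil domain-containing protein 94, whose yeast relative is a splicing factor. It had 73.6 RPKM in sepals, 80.1, 79.0 and 77.5 in dorsal, lateral and ventral petals, 67.4 in stamens, 62.5 in carpels, 70.3 in leaves and 71.1 in roots. The petals were high and the carpels low, and counting error alone would give 95.8% of this variance.

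Of the 84, 3 are annotated as factors of mRNA decay, out of 5 such unigenes among the 4001. This class was again made after the values were seen, so its share is not comparable with the 2.10% of all 4001. With TMM factors 1 unigene of this class was stable, and with median-of-ratios factors 1. Unigene66512, annotated as CCR4-NOT subunit 7, a nuclease that shortens the poly(A) tail, had 54.4 RPKM in stamens to 69.3 in sepals. Unigene48931, annotated as regulator of nonsense transcripts 1, the helicase of nonsense-mediated decay, had 88.9 in carpels to 120 in leaves and roots. Unigene66625, a nonsense-mediated decay protein by annotation, had 49.8 in carpels to 71.1 in sepals. Unigene66512 and Unigene66625 were both highest in sepals, and Unigene48931 and Unigene66625 both lowest in carpels.

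In vesicle traffic, 3 of 100 unigenes were among the 84. Unigene63511, annotated as VPS29, a subunit of the retromer that returns sorting receptors from endosomes, had 32.4 RPKM in ventral petals to 44.4 in carpels. Unigene65316, annotated as a vacuolar sorting receptor, which carries proteins towards the vacuole, had 136 in sepals, 137, 125 and 144 in dorsal, lateral and ventral petals, 132 in stamens, 91.4 in carpels, 114 in leaves and 130 in roots. Carpels were thus its lowest organ but the highest of VPS29. Unigene13852, annotated as a medium subunit of a clathrin adaptor, which links cargo to the coat of a vesicle, had 21.3 in leaves to 31.7 in stamens.

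In signalling and transcriptional control, 2 of 106 protein kinases, 1 of 38 protein phosphatases and 3 of 62 transcription factors were among the 84. The kinases were Unigene50458 and Unigene54389. Unigene54389, annotated as HT1, a kinase that in Arabidopsis controls the response of stomata to carbon dioxide, had 96.9 RPKM in roots to 157 in carpels. The phosphatases of type 1, which remove phosphate from serine and threonine, were Unigene66970, with 29.4 in carpels to 43.3 in sepals and stamens, and Unigene69940, named PP1A and hence outside the phosphatase class, with 39.3 in leaves to 63.4 in carpels. A class of type 1 phosphatases made after the values were seen held these 2 among 4, a share that can be high by construction. With TMM factors 1 unigene of this class was stable, and with median-of-ratios factors 1.

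The transcription factors were a pair of bZIP proteins and a NAC protein. Unigene52758, a bZIP, had 106 RPKM in sepals, 126, 127 and 120 in dorsal, lateral and ventral petals, 131 in stamens, 114 in carpels, 145 in leaves and 116 in roots. It was 1 of the 5 that were highest in leaves. Unigene51332, annotated as indoleacetic acid-induced protein 8, of the Aux/IAA repressors that auxin causes to be degraded, had 177 RPKM in stamens to 230 in roots with a coefficient of variation of 0.0858. Unigene63914, annotated as NAC factor NTL5, had 30.7 in roots to 47.9 in stamens.

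In transport and metabolism, 3 of 91 membrane transporters, 1 of 23 unigenes of nuclear transport and 1 of 48 of glycolysis and citrate cycle were among the 84. Unigene67715, annotated as importin alpha isoform 4, the adaptor that recognises proteins bound for the nucleus, was placed in both transport classes by its title and had 155 RPKM in dorsal petals to 207 in roots. Unigene50146, annotated as the SRP54 protein, which guides nascent secretory proteins to the endoplasmic reticulum, was placed with the transporters by its title and had 78.6 in leaves to 122 in roots. Unigene17264, annotated as the potassium antiporter KEA1, had 19.5 in lateral petals to 27.9 in stamens.

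Mitochondrial functions were represented by single unigenes. Unigene53723, annotated as mitochondrial processing peptidase, which cuts the targeting sequence from imported proteins, had 122 RPKM in sepals, 127, 137 and 130 in dorsal, lateral and ventral petals, 133 in stamens, 106 in carpels, 98.2 in leaves and 130 in roots. Leaves and carpels were its low organs. Unigene65704, annotated as pyruvate dehydrogenase, which feeds acetyl-CoA into the citrate cycle, was likewise lowest in leaves (94.1) and highest in dorsal petals (144). Unigene34920, annotated as NDUFA9, a subunit of respiratory complex I, was lowest in leaves (91.7) and highest in stamens (141). Unigene40984, annotated as a mitochondrial peroxiredoxin, went the other way. Carpels (146) and leaves (139) were its highest organs and dorsal petals (102) its lowest.

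Among enzymes outside the classes, Unigene59103, annotated as lactoylglutathione lyase, which removes methylglyoxal, had 231 RPKM in carpels to 312 in sepals. Unigene57215, annotated as a universal stress protein, was the second most abundant of the 84, with a mean of 523 RPKM, from 426 in leaves to 615 in roots. Its 942 to 1482 reads per library were the most of the 84, and counting error was 4.73% of its variance, so its unevenness was the best measured. Without a named function were Unigene19425, a match to the maize locus LOC541901 with 170 RPKM in sepals to 213 in lateral petals (coefficient of variation 0.0790), Unigene55912, with 56.2 in roots to 73.9 in sepals (0.0860), and Unigene28030, with 192 in roots to 289 in carpels (0.115). Unigene26699, annotated as a zinc-binding dehydrogenase, had 194 in leaves to 249 in ventral petals with a coefficient of variation of 0.0742.

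Several classes of basic cell functions held no stable unigene. They were small enough that the 2.10% of all 4001 would give about 1 unigene or fewer in each, so these zeros alone do not set a class apart, and the medians below describe the classes better. None of 53 ribosomal proteins was stable, with a lowest coefficient of variation of 0.321 and a median of 1.15, and 43 of them were highest in carpels. Their titles do not always separate cytosolic from organellar ribosomes, and 7 were highest in leaves. None of 57 translation factors (median 0.454), 22 of mitochondrial respiration (0.303), 21 of histones and chromatin (0.369), 22 of cell wall enzymes (0.504) or 15 subunits of the V-type ATPase (0.268) was stable by title words. The words missed some of the 84, such as Unigene34920 (NDUFA9, of the respiratory chain), Unigene71225 (SNF2 family), Unigene68542 (PHD finger) and Unigene7577 (HMG and ARID domains), the last 3 with annotations linked to chromatin. With TMM factors 3 translation factors, 1 V-type ATPase subunit and 1 cell wall enzyme were stable. The V-type ATPase, the proton pump of the vacuole, had the lowest median of the classes with at least 10 unigenes, yet its lowest single value was 0.189. A class of low median thus need not hold a unigene within the limit.

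**Figure D3:**
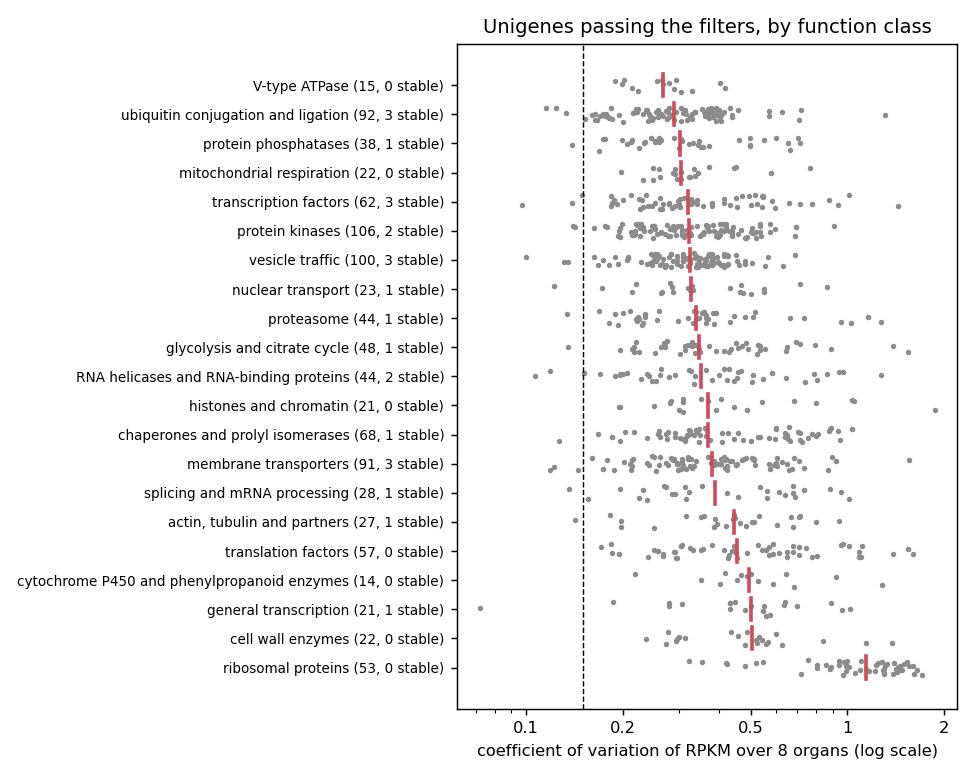
Spread of RPKM (coefficient of variation, horizontal axis, logarithmic) of the unigenes that passed the conditions on mean RPKM and reads, for function classes of at least 10 such unigenes. Grey points are unigenes, red bars are class medians, the dashed line is the limit of 0.15, and the class medians run from 0.268 for the V-type ATPase to 1.15 for ribosomal proteins.

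Of 71 unigenes in families used as reference genes in plants, 4 were among the 84 (5.63%, beside the 2.10% of all 4001). With TMM factors the number was 3 (4.23%, beside 3.82% of all) and with median-of-ratios factors 2 (2.82%, beside 3.17%). The share of these families was thus near that of all unigenes after either rescaling. Of 7 actin unigenes, 1 was stable, Unigene25353, with 274 RPKM in sepals, 269, 292 and 293 in dorsal, lateral and ventral petals, 281 in stamens, 348 in carpels, 306 in leaves and 397 in roots. Roots and carpels were its high organs. The next actin, Unigene39553, had a coefficient of variation of 0.351, with 271 RPKM in lateral petals and 742 in carpels. Short unigenes such as Unigene25353 (174 bp) can be pieces of 1 member of a gene family, and reads that align to several members were not counted.

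Of 19 ubiquitin-conjugating enzymes, 2 were stable, and the median of 0.223 was the lowest of the reference families with more than 1 unigene. Of 7 clathrin adaptor unigenes 1 was stable. None of 12 of protein phosphatase 2A was, though the closest, Unigene65332, had a coefficient of variation of 0.173 and the family median was 0.243. None of 5 polyubiquitins, 7 tubulins, 8 of the cyclophilin family, 3 of elongation factor 1-alpha or 2 of glyceraldehyde-3-phosphate dehydrogenase was stable. The title words of the cyclophilin family also took in Unigene63506, annotated as an FKBP-type prolyl isomerase. The lowest tubulin was Unigene48051 at 0.387. Unigene70325 was the lowest of elongation factor 1-alpha at 0.186, with 23.8 RPKM in carpels and 43.0 in lateral petals. The unigenes named as glyceraldehyde-3-phosphate dehydrogenase were far from even. Unigene50457, annotated as a nonphosphorylating form, was at 1.11, with 61.5 RPKM in ventral petals and 901 in leaves. Unigene15769, annotated as the C subunit, was at 1.55, with 13.3 RPKM in lateral petals and 319 in stamens.

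Evenness could be examined without circularity by choosing unigenes on 7 organs, with the same conditions, and reading the organ left out. A unigene was counted as even there when its RPKM lay within 30% of its mean over the 7 others, and the share was set beside that of all unigenes passing the conditions in the 7 organs. In ventral petals 73 of 75 chosen unigenes were within 30% (97.3%, against 70.9% of all), in lateral petals 82 of 86 (95.3%, against 61.9%) and in dorsal petals 78 of 83 (94.0%, against 65.3%). The choosing set for each petal type held the other petal types, which resemble it. In sepals 75 of 99 were within 30% (75.8%, against 69.2%), and in stamens 84 of 143 (58.7%, against 48.0%).

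For the seedling organs the shares in RPKM were lower than for the organs above. In roots 84 of 175 chosen unigenes were within 30% (48.0%, against 41.1%), with a median ratio of 1.19 to the other organs (against 0.968 over all). In leaves 93 of 225 were (41.3%, against 32.2%), with a median ratio of 0.673 (against 0.636 over all). This order depended on the scaling. With TMM factors the share was 70.8% in leaves (against 44.2%), with a median ratio of 0.972 (against 0.848). In roots it was 58.6% (against 42.5%), and both were above the 56.2% in stamens. With median-of-ratios factors the shares in leaves, roots and stamens were 68.1%, 54.7% and 53.9%. When the choice used the 6 floral organs alone, it gave 436 of 5805 unigenes, of which 44.3% were within 30% in leaves (against 29.9% of all) and 55.3% in roots (against 40.4%). Of the 84, 79 were among these 436, which is 94.0% of the 84 and 18.1% of the 436.

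Carpels stood apart. Without them, 425 unigenes were even over the 7 other organs, and in carpels 94 of these were within 30% (22.1%), next to 21.6% of all 5796. The median ratio of carpels to the others was 0.488 for the 425, against 0.560 over all 5796. Of the 425, 276 were more than 30% below and 55 more than 30% above, and no such counts were computed for all 5796. The condition on reads did not apply to carpels here, so unigenes low in carpels could enter both sets. With TMM factors the share was 28.9% (against 23.6%), the median ratio was 0.727 (against 0.699), and 247 were below and 124 above. With median-of-ratios factors the share was 28.7% and the median ratio 0.843, so the size of the carpel deficit depended on the scaling, while carpels had the lowest share under all 3. Averaged over the 8 organs with equal weight, 66.6% of chosen unigenes were within 30%, against 51.3% of all, and the share was above that of all unigenes for each of the 8 organs in RPKM. With reads thinned to the smallest library this held for 7, and in carpels 20.5% of chosen unigenes were within 30%, against 21.9% of all.

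**Figure D4:**
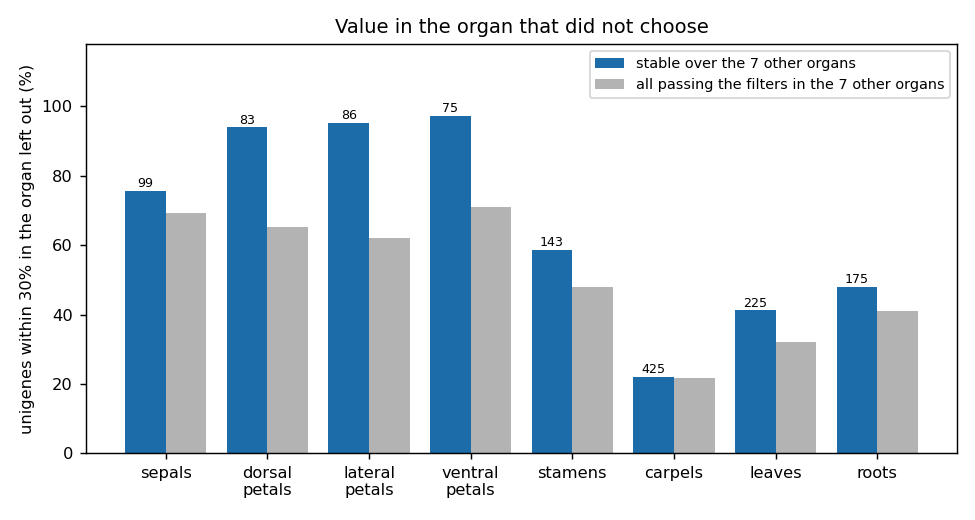
Share of unigenes (vertical axis, percent) whose RPKM in the organ named on the horizontal axis lay within 30% of their mean over the 7 other organs. Blue bars are the unigenes chosen as even on those 7 organs, with their number above the bar, and grey bars are all unigenes passing the conditions there, with 97.3% against 70.9% in ventral petals and 22.1% against 21.6% in carpels.

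Which unigenes counted as stable depended on how libraries were scaled. RPKM gives every library the same total. When RPKM was rescaled by TMM factors, 153 of the 4001 unigenes (3.82%) were stable, and 32 were shared with the 84, which is 38.1% of the 84 and 20.9% of the 153. With median-of-ratios factors 127 (3.17%) were stable, and 21 were shared, 25% of the 84 and 16.5% of the 127. The rescaled values of the 84 were no longer lowest in leaves: with TMM factors their medians relative to their own means were 1.19 in carpels, 1.17 in leaves and 0.900 to 0.904 in the petals.

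Of the 10 unigenes of lowest spread in RPKM, 7 were within the limit with TMM factors. Unigene58410 had a coefficient of variation of 0.136, Unigene68614 of 0.132 and Unigene26699 of 0.123, but Unigene71345 had 0.164 and Unigene55238 0.184. With median-of-ratios factors Unigene68614 had 0.182, and all of the unigenes just named were over the limit, at 0.170 to 0.208. Unigene53931, also of the 10, was within it at 0.126. The highest coefficient of variation of the 84 with TMM factors was 0.291, for Unigene12531, which was highest in carpels (47.0 RPKM) and next highest in leaves (45.1). The ubiquitin-conjugating enzyme Unigene35233 and the actin Unigene25353 were also over the limit, at 0.176 and 0.230.

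Under RPKM and both rescalings, 19 of the 84 were stable. They included Unigene53723 (mitochondrial processing peptidase, 0.0594 with TMM factors, the lowest of the 84), Unigene66970 (type 1 phosphatase, 0.0832), Unigene65316 (vacuolar sorting receptor, 0.0961), Unigene66625 (nonsense-mediated decay, 0.103), Unigene50146 (SRP54, 0.0819) and Unigene36048 (Ubc12, 0.122). The DNAJ-like co-chaperone Unigene69865 and Unigene53931 (coiled-coil domain-containing protein 94, 0.109) belonged to them as well. In RPKM, carpels or leaves were the lowest organ of each of these 8 unigenes, beside 44 of all 84 (52.4%). The 8 were picked from the 19, of which Unigene7577 was lowest in stamens. Carpels and leaves are the organs that rescaling raises, and a link of this with the 19 was not tested.

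**Figure D5:**
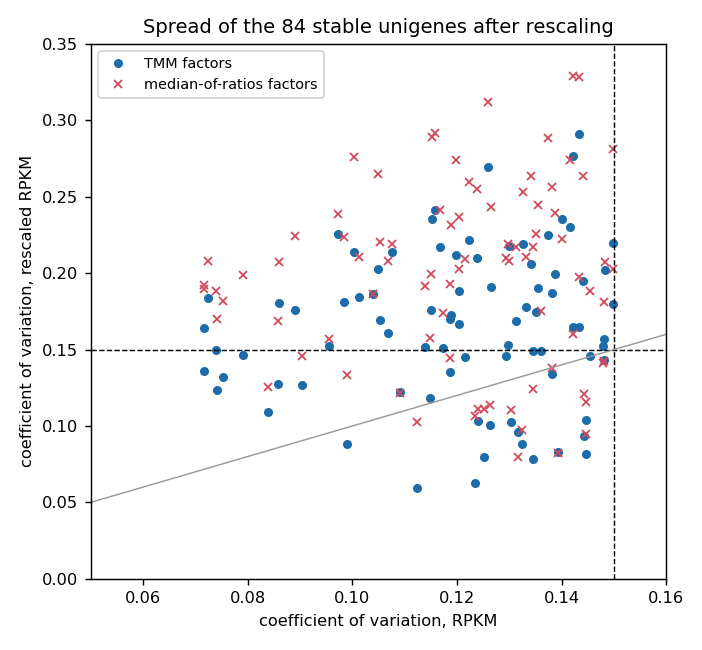
Coefficient of variation of the 84 stable unigenes over the 8 organs after rescaling (vertical axis) against that in RPKM (horizontal axis), with TMM factors as blue points and median-of-ratios factors as red crosses. Dashed lines are the limit of 0.15, the grey line is equality, and 32 blue points and 21 red crosses lie below the horizontal limit.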

How the data were processed

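The 8 deposited tables, 1 per organ, list for each unigene its length, its read count, RPKM, coverage and annotation. The deposited counts are raw numbers of reads that aligned to a single unigene of the de novo assembly. From them, the authors computed RPKM with unigene length and library total. The deposited coverage is the percent of a unigene's bases under at least 1 read. The name of the aligner was not given in the sources used here.

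Tables were joined by unigene, absent unigenes were set to 0 reads, and RPKM was recomputed (largest relative difference from the deposited RPKM 5.58e-09). The counting error is the Poisson variance of the reads. Function classes (24), reference families (10) and organ markers are words in the nr titles. Another 4 classes were made after the values were seen. The 84 unigenes and the lists were chosen with earlier results of these data known. Named are Unigene68614, the 10 unigenes of lowest coefficient of variation, the 10 of highest mean RPKM, the lowest of each class, the 3 on each side of the limit and those examined by PCR, and others were added after their values were seen. No paper value was used, only the primer sequences. No test between organs was run. Alternatives changed the scaling (TMM factors from edgeR 4.0.16 in R 4.3.3, and median-of-ratios factors), depth, limits, measure of spread and organs. The script that applies the rule was tested on simulated data before use. The simulated unigenes had more expected reads per library than most of the 84, so that test does not cover the rule at their depth. Scripts ran in Python 3.11.15 with pandas 2.3.3, numpy 2.4.6, matplotlib 3.10.9 and scipy 1.17.1.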

Additional observations from a re-analysis of the deposited data

How the results depend on the processing

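The number of stable unigenes, 84, was 153 with TMM factors and 127 with median-of-ratios factors, 16 at a limit of 0.10 and 321 at 0.20, 55 at a mean RPKM of at least 50, 36 at 200 or more reads in each library, and 436 over the 6 floral organs only. Without stamens it was 143, without carpels 425, without leaves 225 and without roots 175. The other 11 counts of stable unigenes stayed within 1.5 times of 84. With reads thinned to the smallest library 81 were stable, 75 of them among the 84. The stable unigenes in a function class, 23, were 46 with TMM factors and 39 with median-of-ratios factors. Pooled over the 8 organs left out in turn, 50.6% of chosen unigenes were within 30%, against 49.1% of all. This pool is weighted towards carpels, which have the most chosen unigenes. It was 62.2% with TMM factors, 59.9% with median-of-ratios factors and 39.1% within 20%. Of the 31 stable unigenes that the rule names, 18 were over the limit with TMM factors, 26 with median-of-ratios factors and 2 with thinned reads. Of the 3 just outside it, 1 came inside with TMM factors and 3 with thinned reads. No paired analysis was possible because each organ has 1 library and the labels give no replicate numbers. Depth limits the list, since counting error alone reaches 0.0914 in the shallowest of the 84. A single library per organ cannot separate organ from library, nor, for leaves and roots against the flowers, organ from plant. The paper states that flowers of many plants were dissected into the 6 floral organs, so these libraries share their plants.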

Other observations

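Leaving out carpels gave 425 even unigenes, 7.33% of the 5796 that passed the conditions. Their median carpel ratio was 0.488, against 0.560 over all 5796. Of 172 protein kinases passing the conditions without carpels, 25 were even over the 7 other organs, with a median carpel ratio of 0.434, near that of all 425. The ratio was lowest for Unigene56314, a protein kinase by annotation, at 9.75 RPKM in carpels (21 reads) against a mean of 204 in the other organs. Of 151 unigenes of ubiquitin conjugation and ligation 22 were even, with a median carpel ratio of 0.680, and of 44 proteasome unigenes 5 were, with 1.62. At the high end, Unigene29756, annotated as the voltage-dependent anion channel VDAC1 of the mitochondrial outer membrane, had a coefficient of variation of 0.0463 over the 7 other organs and 483 RPKM in carpels against 145 elsewhere. Unigene68388, a 14-3-3 protein by annotation, had 280 RPKM in carpels against 60.8. These unigenes were chosen for their place at the ends of the list.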
